A study of Mus musculus with 18 samples.

Results

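*Foxp3* and the 5 genes of the Ikaros family, *Ikzf1* (Ikaros), *Ikzf2* (Helios), *Ikzf3* (Aiolos), *Ikzf4* (Eos) and *Ikzf5* (Pegasus), were examined in regulatory T cells (Tregs) with and without CD25, the α chain of the IL-2 receptor. They were chosen by gene symbol and make up 6 of the 50600 genes in the count table. RNA-seq counts covered 18 samples, each of FACS-purified Tregs from 1 mouse on the C57BL/6 background. Thymic CD25 KO Tregs came from 5 CD25cKO mice, whose floxed *Il2ra* is cut by a Cre that is expressed with YFP from the *Foxp3* locus. These mice had been “cured” of autoimmunity, that is, given WT splenocytes intravenously as newborns. Their 5 thymic WT controls were Foxp3/RFP reporter mice, and both groups were 3 to 4 weeks old. Splenic CD25 KO Tregs came from 4 CD25flox/Foxp3eGFP-Cre-ERT2/R26Y mice, in which tamoxifen activates a Cre made from the *Foxp3* locus and switches on YFP in the same cells. Their 4 splenic WT controls were CD25 WT reporter mice that also received tamoxifen. Splenic mice were 7 to 10 weeks old when tamoxifen was given and were examined 10 to 14 days later. The thymic WT and CD25 KO mice thus carried different *Foxp3* reporter alleles, and the sources used here describe the splenocyte transfer for the CD25 KO mice alone. In the thymus, loss of CD25 therefore cannot be told apart from reporter allele, Cre or transfer for any gene. Genes of the *Foxp3* locus lie on the reporter alleles themselves. Between thymus and spleen, the mouse model, age, tamoxifen, the date in the library names and the share of samples with RNA of *Xist* changed together. Model, age, tamoxifen and date cannot be told apart from tissue.

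Foxp3 is the forkhead transcription factor that defines Tregs, and its loss leads to severe autoimmunity. IL-2 binding to its receptor activates STAT5, which binds the *Foxp3* gene and helps to maintain its transcription. The Ikaros family proteins are zinc finger transcription factors of lymphocytes that bind DNA as pairs with one another and recruit corepressors such as the NuRD complex. Helios is enriched in Tregs, Eos is a partner of the Foxp3 protein in gene silencing, Ikaros and Aiolos act widely in lymphocyte development, and Pegasus is a more distant member of the family.

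RefSeq promoters of GRCm38.p6 were found for 3 of the 6 genes, *Foxp3*, *Ikzf1* and *Ikzf5*. The 250 bases before both annotated starts of *Foxp3* are shown because *Foxp3* was lower in CD25 KO Tregs of both tissues, and those before one start of *Ikzf1* because *Ikzf1* was called in neither tissue. Capitals mark matches on either strand to TATAAA (the TATA box), TTCNNNGAA (the GAS site that STAT proteins bind), TGTTTAC (forkhead) or TGGGAA (the Ikaros core).
*Foxp3*, start at chrX:7579676, window chrX:7579426-7579675, plus strand: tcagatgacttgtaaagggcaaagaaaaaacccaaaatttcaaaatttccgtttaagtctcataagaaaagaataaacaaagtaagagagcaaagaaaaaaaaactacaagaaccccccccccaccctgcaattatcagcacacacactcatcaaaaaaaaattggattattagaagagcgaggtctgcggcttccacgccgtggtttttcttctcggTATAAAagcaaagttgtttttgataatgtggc
*Foxp3*, start at chrX:7580483, window chrX:7580233-7580482, plus strand: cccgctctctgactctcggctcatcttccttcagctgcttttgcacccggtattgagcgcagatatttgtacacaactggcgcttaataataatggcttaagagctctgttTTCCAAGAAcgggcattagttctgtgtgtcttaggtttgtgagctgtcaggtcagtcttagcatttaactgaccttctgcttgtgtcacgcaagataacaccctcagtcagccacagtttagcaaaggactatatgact
*Ikzf1*, start at chr11:11685925, window chr11:11685675-11685924, plus strand: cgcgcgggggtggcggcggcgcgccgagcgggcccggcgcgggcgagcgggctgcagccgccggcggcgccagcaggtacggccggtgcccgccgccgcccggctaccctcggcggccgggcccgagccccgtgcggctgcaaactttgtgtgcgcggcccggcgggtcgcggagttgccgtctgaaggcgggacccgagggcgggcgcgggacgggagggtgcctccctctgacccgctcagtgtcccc
The first *Foxp3* window held a TATA match beginning 32 bases before the start, and the second held a GAS match beginning 139 bases before the start. Among 32851 windows of this length in the table, 12.4% held a TATA match and 7.02% a GAS match, against 3.17% for the forkhead and 21.6% for the Ikaros letters. The *Ikzf1* window held no match and had a GC content of 82.0%, against 37.6% and 46.0% in the *Foxp3* windows. The *Ikzf5* window, which is not shown, held 1 GAS match, 226 bases before the start.

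Thymic samples had 17239774 to 23993674 reads assigned to genes, and splenic samples 25258341 to 32639570. Levels are given as CPM, that is, counts scaled to library size on 1 TMM scale for all 18 samples, as mean ± SD over mice, and the difference between CD25 KO and WT as a log2 fold change with its SE. The test was that of edgeR's quasi-likelihood model, fitted to each tissue on its own, with Benjamini-Hochberg adjustment across the genes of that fit, and a gene was called at an adjusted *p* below 0.01. *Il2ra*, the targeted gene, had 613 ± 73.2 CPM in WT Tregs of the thymus, against 162 ± 88.1 CPM with CD25 KO (n = 5 each), and 524 ± 23.9 against 186 ± 17.3 CPM in splenic Tregs (n = 4 each). It was lower than in every WT sample of the tissue in all CD25 KO samples, but thymic CD25 KO mice 2 and 4 kept 280 and 234 CPM, against 95.9 to 105 CPM in the other 3. Every sample held at least 5140 counts of *Foxp3* and at least 7446 of *Cd4*. Of the T cell genes among the Treg markers, *Cd3e* was lower in thymic CD25 KO Tregs (log2 fold change -0.43, adjusted *p* = 0.000557), and *Cd4* (0.32, adjusted *p* = 0.000675) and *Cd3g* (0.27, adjusted *p* = 0.0026) were higher in splenic ones. In the spleen the mean of *Cd3e* went the other way than in the thymus, from 593 ± 13.3 CPM in WT to 698 ± 47.0 CPM in CD25 KO Tregs. Sorted cells were measured in bulk, so fewer cells that express a gene and less RNA per cell cannot be told apart.

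*Foxp3* (ENSMUSG00000039521.12; GRCm38 chrX:7573644-7595245, plus strand) was lower in CD25 KO Tregs in both tissues. In thymic WT mice 1 to 5 it had 524, 543, 400, 578 and 470 CPM. In thymic CD25 KO mice 1 to 5 it had 281, 336, 287, 313 and 270 CPM. The groups did not overlap, and the group mean fell from 503 ± 69.6 to 297 ± 26.5 CPM. The log2 fold change was -0.74 (SE 0.0973, adjusted *p* = 0.00101), which left 59.8% of the WT level. In splenic WT mice 1 to 4 it had 326, 345, 322 and 327 CPM. In splenic CD25 KO mice 1 to 4 it had 235, 227, 239 and 204 CPM, again without overlap. The splenic log2 fold change was -0.55 (SE 0.0554, adjusted *p* = 6.9e-06), which left 68.5% of the WT level. Every CD25 KO sample lay below every WT sample for 9.17% of all genes tested in thymic and 9.19% in splenic Tregs. The difference between the tissues in the effect of CD25 KO on *Foxp3* was 0.21 (SE 0.122, 95% interval -0.027 to 0.45, adjusted *p* = 0.237), and so was not called.

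The lowest thymic WT values of *Foxp3*, in mice 3 and 5, came from the samples in that group with RNA of *Xist*, which is made in female cells. *Xist* was detected in 2 of 5 thymic WT samples, 1 of 5 with thymic CD25 KO and all splenic ones. In the thymic CD25 KO group it was mouse 4 that had *Xist* RNA. Its *Foxp3* (313 CPM) was not low but was exceeded in that group by mouse 2 (336 CPM) alone. With detection of *Xist* as a term in the fit, the thymic log2 fold change of *Foxp3* was -0.76 (adjusted *p* = 0.000984). Thymic CD25 KO mice 2 and 4, which had the most *Il2ra* RNA of their group, with or without exon 4, also had its highest *Foxp3*. Without those 2 mice the log2 fold change was -0.84 (adjusted *p* = 0.000375).

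**Figure D1:**
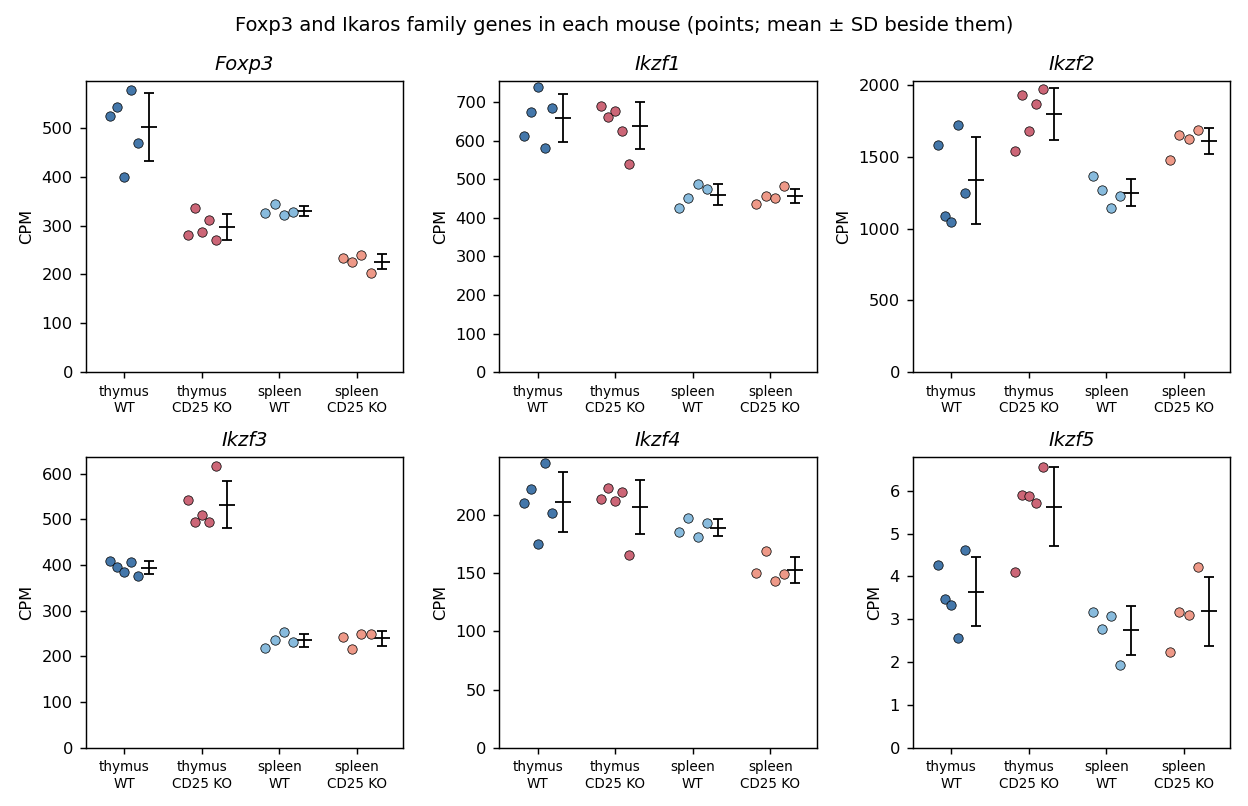
Level (CPM, TMM scale, axes from 0) of *Foxp3* and the Ikaros family genes in each mouse, by tissue and genotype; points are mice in order of their number, and the bar beside them is the mean ± SD. *Foxp3* lay below WT in every CD25 KO mouse of both tissues, *Ikzf3* above WT in every thymic CD25 KO mouse, and *Ikzf2* above and *Ikzf4* below WT in every splenic CD25 KO mouse.

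Of the 6 genes, 2 were called in the thymus (*Foxp3* lower, *Ikzf3* higher) and 3 in the spleen (*Foxp3* and *Ikzf4* lower, *Ikzf2* higher). Over all genes, 6.16% of 16986 were called in the thymus (3.17% higher, 2.99% lower) and 9.45% of 17463 in the spleen (5.90% higher, 3.55% lower). Thymic calls split into 539 higher and 508 lower genes, and with upper-quartile in place of TMM scaling into 808 higher and 440 lower. All 5 member calls and their directions held under that scaling.

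*Ikzf2* (ENSMUSG00000025997.13; chr1:69531214-69687245, minus strand), which encodes Helios, had the highest CPM of the family in each of the 18 samples, on a scale that leaves out gene length. It was higher in splenic CD25 KO Tregs, while its call in the thymus depended on the fit. In splenic WT mice 1 to 4 it had 1366, 1269, 1144 and 1226 CPM. In splenic CD25 KO mice 1 to 4 it had 1477, 1656, 1626 and 1688 CPM, all above WT. The log2 fold change was 0.37 (SE 0.0639, adjusted *p* = 0.000859), against 11.2% of splenic genes with every CD25 KO sample above WT. With all 18 samples in 1 fit it was 0.37 (adjusted *p* = 0.0795) and not called. In thymic WT mice 1 to 5 it had 1583, 1085, 1044, 1721 and 1252 CPM. In thymic CD25 KO mice 1 to 5 it had 1539, 1931, 1685, 1870 and 1973 CPM. Thymic WT mice 1 and 4 reached into the CD25 KO range, and 3 of the 5 CD25 KO mice lay above all WT mice. The thymic log2 fold change of 0.44 (SE 0.140, adjusted *p* = 0.0392) was not called, but it was with all 18 samples in 1 fit (0.43, adjusted *p* = 0.00845) and with DESeq2 (0.45, adjusted *p* = 0.00932). The difference between the tissues was -0.064 (95% interval -0.40 to 0.27, adjusted *p* = 0.832). Thymic fold changes ran with GC content (Spearman's rho = -0.40 across 16945 genes, which are no replicates of one another), and the exons of *Ikzf2* have a GC content of 40.1%. With the GC trend of each library removed, the thymic value was 0.20 (adjusted *p* = 0.191).

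Transcripts annotated inside *Ikzf2* were also measured. *Gm29112* and *Gm28112* lie in its introns on the same strand, and their reads could come from unspliced *Ikzf2* RNA. In the thymus *Gm29112* had 59.4 ± 20.3 CPM in WT against 102 ± 9.06 CPM in CD25 KO Tregs (log2 fold change 0.80, adjusted *p* = 0.0118). *Gm28112* had 93.7 ± 34.3 and 157 ± 9.42 CPM (0.76, adjusted *p* = 0.0173). In the spleen their log2 fold changes were 0.30 (adjusted *p* = 0.29) and 0.26 (adjusted *p* = 0.354), so that neither was called in either tissue. The antisense gene *Gm29114*, which shares 1.24% of the exon bases of *Ikzf2*, had log2 fold changes of 0.57 (adjusted *p* = 0.0387) in the thymus and 0.15 (adjusted *p* = 0.229) in the spleen.

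*Ikzf3* (ENSMUSG00000018168.8; chr11:98464902-98546031, minus strand), which encodes Aiolos, was higher in thymic but not in splenic CD25 KO Tregs. In thymic WT mice 1 to 5 it had 409, 396, 384, 406 and 375 CPM. In thymic CD25 KO mice 1 to 5 it had 542, 494, 510, 495 and 617 CPM. All CD25 KO mice lay above all WT mice, as did 7.20% of the genes tested, and the log2 fold change was 0.45 (SE 0.0662, adjusted *p* = 0.00196). With the mouse number as a block it was 0.44 (adjusted *p* = 0.0124) and not called, although the numbers did not pair the mice. With the GC correction added to the block it was 0.47 (adjusted *p* = 0.00777) and called. In splenic WT mice 1 to 4 it had 219, 236, 254 and 231 CPM. In splenic CD25 KO mice 1 to 4 it had 243, 216, 250 and 248 CPM, across the same range. The splenic log2 fold change was 0.028 (SE 0.0588, 95% interval -0.088 to 0.14, adjusted *p* = 0.799). *Gm25106*, an snRNA gene within *Ikzf3*, was not called, with log2 fold changes of 0.57 (adjusted *p* = 0.0763) in thymic and -0.088 (adjusted *p* = 0.859) in splenic Tregs. The difference between the tissues in *Ikzf3* was -0.41 (SE 0.0939, adjusted *p* = 0.00614), which made *Ikzf3* 1 of the 1305 called among 18686 genes (6.98% of all genes tested, while 2.49% of all genes tested were called with a lower value in the spleen, as *Ikzf3* was). It was the only one of the 6 genes called in that test, and leaving out single mice ended the call in 7 of 18 fits, those without thymic WT mouse 2, 3 or 5, splenic WT mouse 2, 3 or 4, or splenic CD25 KO mouse 2 (values of -0.41 to -0.37, adjusted *p* = 0.0104 to 0.0178).

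*Ikzf4* (ENSMUSG00000002578.16; chr10:128630843-128645991, minus strand), which encodes Eos, was lower in splenic but not in thymic CD25 KO Tregs. In splenic WT mice 1 to 4 it had 185, 197, 181 and 193 CPM. In splenic CD25 KO mice 1 to 4 it had 150, 169, 143 and 149 CPM, all below WT, as was the case for 9.19% of splenic genes tested. The log2 fold change was -0.30 (SE 0.0568, adjusted *p* = 0.00147), and with all 18 samples in 1 fit -0.31 (adjusted *p* = 0.0409), which was not called. In thymic WT mice 1 to 5 it had 210, 222, 175, 245 and 202 CPM. In thymic CD25 KO mice 1 to 5 it had 213, 223, 212, 220 and 166 CPM, with mouse 5 below all others. The thymic log2 fold change was -0.012 (SE 0.0966, 95% interval -0.20 to 0.18, adjusted *p* = 0.942). The difference between the tissues was -0.28 (SE 0.124, adjusted *p* = 0.125) and was not called, so the effect of CD25 KO on *Ikzf4* was not shown to differ between thymus and spleen. *Gm26876*, a noncoding gene that overlaps its start on the other strand, was not called (-0.078, adjusted *p* = 0.89, in thymic and -0.58, adjusted *p* = 0.309, in splenic Tregs).

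*Ikzf1* (ENSMUSG00000018654.17; chr11:11685003-11772926, plus strand), which encodes Ikaros, was not called in either tissue. Thymic WT mice ranged from 582 to 740 CPM and thymic CD25 KO mice from 540 to 691 CPM. Splenic WT mice ranged from 425 to 487 CPM and splenic CD25 KO mice from 437 to 482 CPM. The log2 fold change was -0.027 (95% interval -0.18 to 0.13, adjusted *p* = 0.83) in thymic and -0.0059 (95% interval -0.11 to 0.10, adjusted *p* = 0.959) in splenic Tregs. The noncoding genes *Gm11999* and *Gm12000*, which overlap *Ikzf1* on the other strand, were not called either, with adjusted *p* of 0.504 and 0.04 in the thymus and of 0.187 and 0.507 in the spleen.

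*Ikzf5* (ENSMUSG00000040167.16; chr7:131388652-131410521, minus strand), which encodes Pegasus, had only 49 to 133 counts per sample. It shares 81.3% of its exon bases with *Pstk*, a kinase gene on the other strand, and 84.5% with any gene, so that its counts depend on how reads of shared bases were assigned. In thymic WT mice 1 to 5 it had 4.26, 3.49, 3.32, 2.56 and 4.61 CPM, and in thymic CD25 KO mice 4.10, 5.90, 5.88, 5.72 and 6.57 CPM. CD25 KO mouse 1 lay within the WT range and the other 4 above it. The log2 fold change of 0.64 (SE 0.176, adjusted *p* = 0.0224) was not called by edgeR's quasi-likelihood test but was with DESeq2 (adjusted *p* = 0.00395). With the GC trend of each library removed it was 0.39 (adjusted *p* = 0.138). In the spleen the levels were 1.93 to 3.18 CPM in WT, against 2.25 to 4.21 CPM in CD25 KO Tregs (log2 fold change 0.22, SE 0.206, adjusted *p* = 0.511). *Gm44624* and *Gm44625*, which lie within *Ikzf5*, were not called in either tissue (adjusted *p* of 0.477 and 0.247 in thymic, 0.489 and 0.991 in splenic Tregs), and *Fgfr2*, whose annotated span covers *Ikzf5*, had 0 to 2 counts per sample. *Pstk* itself had log2 fold changes of 0.23 (adjusted *p* = 0.203) and -0.099 (adjusted *p* = 0.506).

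**Figure D2:**
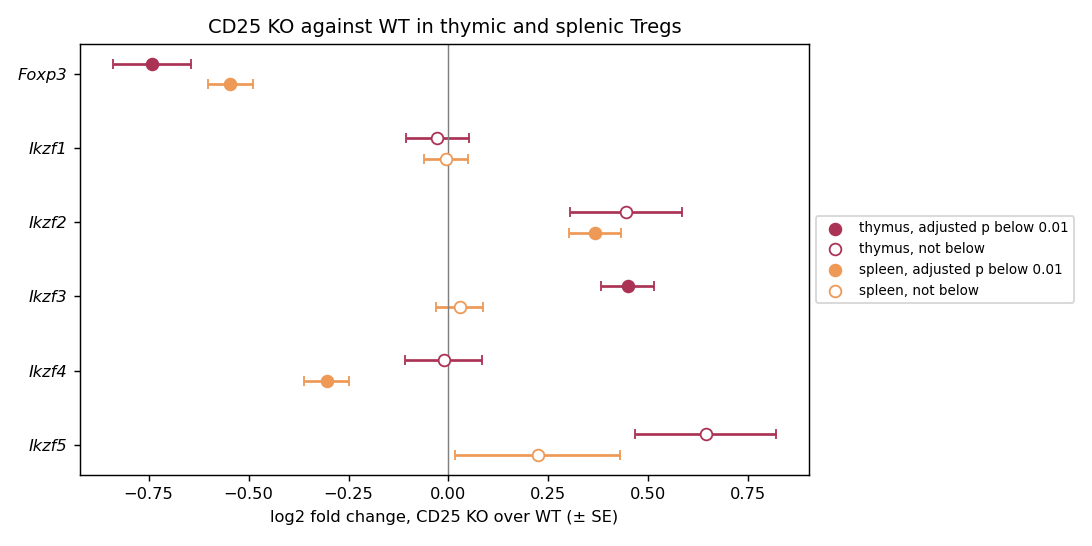
Log2 fold change of CD25 KO over WT (horizontal axis, bars ± SE) for each of the 6 genes in thymic and splenic Tregs; filled points have an adjusted *p* below 0.01. *Foxp3* lay left of 0 in both tissues, at -0.74 and -0.55, and *Ikzf2* right of 0 in both, while *Ikzf3* was filled in the thymus and *Ikzf4* in the spleen alone.

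Genes that overlap *Foxp3* or lie within 100 kb of it were compared because the reporter alleles differ there. *Flicr*, a long noncoding RNA on the same strand that begins beside the annotated start of *Foxp3* and is known to limit its expression, shares 18.6% of the exon bases of *Foxp3*. It was lower in CD25 KO Tregs in both tissues, from 48.5 ± 7.28 to 32.9 ± 4.16 CPM in the thymus (log2 fold change -0.54, adjusted *p* = 0.00769) and from 44.2 ± 3.85 to 27.5 ± 1.75 CPM in the spleen (-0.69, adjusted *p* = 9.9e-06). *Ccdc22*, whose end overlaps that of *Foxp3* on the other strand, had 40 to 70 counts in thymic WT samples. Counts were 0 to 2 in samples with thymic CD25 KO, 0 to 1 in those of splenic WT and 0 to 2 in those of splenic CD25 KO mice, so thymic WT stood apart from both splenic groups as well. Against a floor of 3 counts per library, *Ccdc22* was at least 17.4-fold lower in thymic CD25 KO than in thymic WT Tregs (log2 fold change called lower, adjusted *p* = 1.28e-05). *Gm36995* or *Foxp3* exons cover 92.6% of the exon bases of *Ccdc22*, so few reads could be counted on it alone.

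*Gm36995*, a noncoding transcript that spans the whole of *Foxp3* on the other strand, was also highest in thymic WT Tregs. It had 4.76 ± 1.05 CPM there, against 0.830 ± 0.317 CPM with CD25 KO in the same tissue, 0.539 ± 0.0657 CPM in splenic WT Tregs and 0.426 ± 0.0768 CPM with splenic CD25 KO. Its log2 fold change was -2.50 in the thymus (adjusted *p* = 0.000256) and -0.33 in the spleen (adjusted *p* = 0.486). *Syp*, the gene of the synaptic vesicle protein synaptophysin, begins 64.8 kb after the start of *Foxp3* and was lowest in thymic WT Tregs. These had 2.58 ± 0.392 CPM, below the 6.66 ± 0.883, 9.16 ± 0.933 and 6.99 ± 0.653 CPM of the other groups. It was higher in thymic CD25 KO Tregs (log2 fold change 1.38, adjusted *p* = 0.000169), and not called in the spleen (-0.39, adjusted *p* = 0.0236). *Prickle3*, 83.6 kb after the start of *Foxp3*, was higher in thymic (0.38, adjusted *p* = 0.00552) and lower in splenic CD25 KO Tregs (-0.31, adjusted *p* = 0.00934). The difference between the tissues was called for *Ccdc22* (adjusted *p* = 0.00798), *Gm36995* (adjusted *p* = 0.00103), *Syp* (adjusted *p* = 2.76e-06) and *Prickle3* (adjusted *p* = 0.000303). *Ppp1r3f*, which overlaps the first exon bases of *Foxp3* on the other strand, had log2 fold changes of -0.053 (adjusted *p* = 0.783) and -0.32 (adjusted *p* = 0.0802). The part of the reporter alleles in the thymic values of *Foxp3* and these neighbours was not tested. *Plp2*, which begins 97.8 kb after the start of *Foxp3*, was not called, with log2 fold changes of -0.040 (adjusted *p* = 0.875) in thymic and -0.10 (adjusted *p* = 0.424) in splenic Tregs. *Cacna1f* (1 to 11 counts per sample), *Magix* (0 to 18), *Gm14703* (2 to 19) and the genes *Gm14381*, *Gm14395*, *Gm14394*, *Gm23082* and *Gm6079* (0 to 2) had too few counts to be tested. In the spleen both genotypes received tamoxifen, but the sources used here do not name the *Foxp3* reporter allele of the WT controls.

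**Figure D3:**
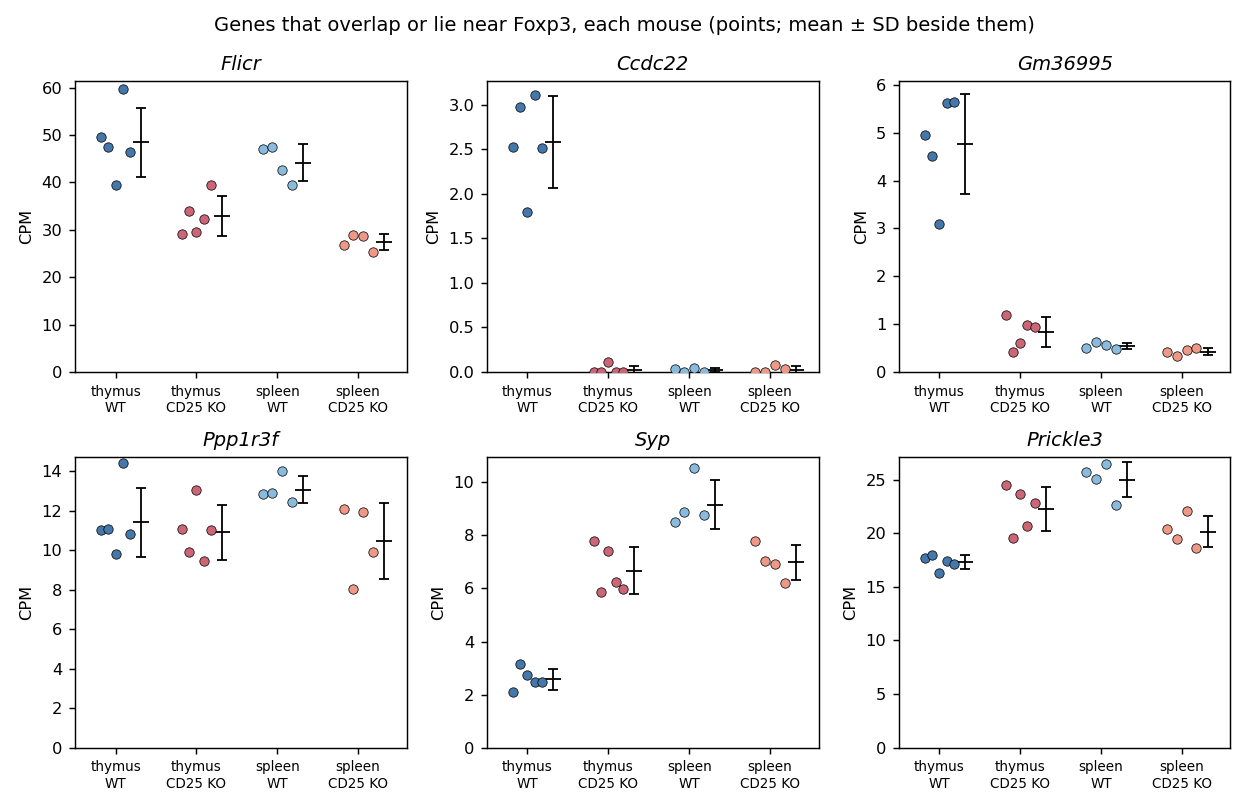
CPM (TMM scale, axes from 0) of 6 genes that overlap or lie near *Foxp3*, in each mouse by tissue and genotype, with the mean ± SD beside the points. Thymic WT mice stood above all other mice for *Ccdc22* and *Gm36995* and below them for *Syp*, whereas *Flicr* was lower in CD25 KO mice of both tissues.

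Between the tissues, the WT groups were compared in 1 fit of all 18 samples, in which 40.4% of 18686 genes were called, 19.5% with a lower level in the spleen. In splenic WT Tregs, *Foxp3* (log2 fold change over thymic WT -0.61, adjusted *p* = 7.26e-06), *Ikzf1* (-0.52, adjusted *p* = 9.32e-06) and *Ikzf3* (-0.75, adjusted *p* = 1.35e-08) were lower. *Ikzf2* (-0.096), *Ikzf4* (-0.16) and *Ikzf5* (-0.41) were not called. Among CD25 KO Tregs, where 50.2% of genes were called and 24.4% were lower in the spleen, the splenic group was lower for *Foxp3* (-0.40), *Ikzf1* (-0.48), *Ikzf3* (-1.15), *Ikzf4* (-0.44) and *Ikzf5* (-0.82), and *Ikzf2* was not called (-0.16, adjusted *p* = 0.261). The order of *Foxp3* levels was thymic WT, splenic WT, thymic CD25 KO and splenic CD25 KO. Splenic WT (322 to 345 CPM) and thymic CD25 KO (270 to 336 CPM) overlapped, and the other neighbours in that order did not. For *Ikzf3* the order was thymic CD25 KO, thymic WT and then both splenic groups, which overlapped. For *Ikzf2* it was thymic CD25 KO, splenic CD25 KO, thymic WT and splenic WT, with overlap between each pair of neighbours.

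To compare genes with one another, CPM were divided by the length of all annotated exons (CPM per kb). This scale takes every exon base as countable, which overlapping genes make uncertain for *Foxp3* (31.5% of its exon bases shared) and *Ikzf5*. On it, *Ikzf2* and *Foxp3* were nearly level in thymic WT Tregs, at 115 ± 26.0 and 110 ± 15.2 CPM per kb. The ratio of *Ikzf2* to *Foxp3* was 0.788 to 1.19 in thymic WT mice, against 2.16 to 2.88 with thymic CD25 KO, with means of 1.05 and 2.40. In the spleen it was 1.40 to 1.65 in WT against 2.48 to 3.27 in CD25 KO mice, with means of 1.49 and 2.83. The ranges did not overlap in either tissue. This was not particular to *Ikzf2*, since *Foxp3* itself was lower and the ratios of *Ikzf1*, *Ikzf3* and *Ikzf4* to it also parted in both tissues. For *Ikzf1*, which was called in neither tissue, the ratio was 0.798 to 1.47 in thymic WT against 1.56 to 1.95 in thymic CD25 KO mice. In the spleen it was 1.03 to 1.20 against 1.47 to 1.88. How many other genes would part in this way was not counted. The ratio of *Ikzf4* to *Foxp3* was less spread among mice, at 0.321 ± 0.0112 in thymic WT and 0.437 ± 0.00900 in splenic WT Tregs. It was 0.531 ± 0.0447 in thymic and 0.519 ± 0.0549 in splenic CD25 KO Tregs. These ratios combine genes tested above and have no test of their own.

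**Figure D4:**
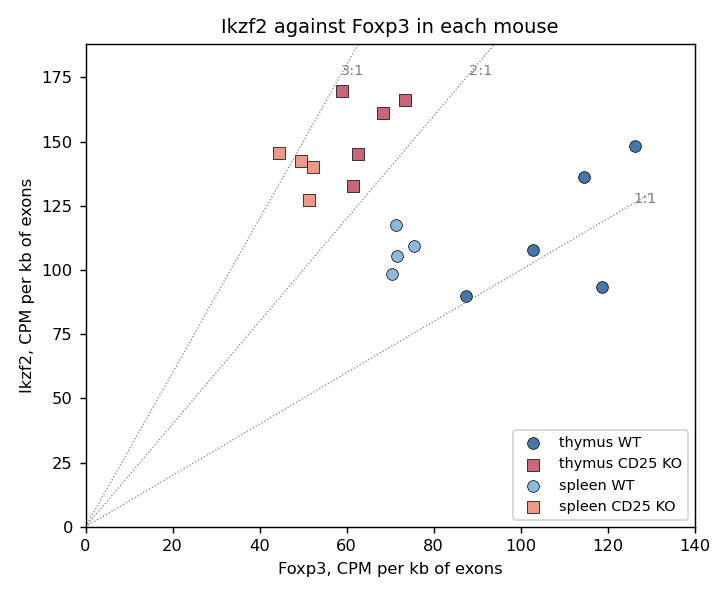
Level of *Ikzf2* (vertical axis) against *Foxp3* (horizontal axis), both in CPM per kb of exons, in each mouse; dotted lines are ratios of 1, 2 and 3. All CD25 KO mice (squares) lay above the line of ratio 2 and all WT mice (circles) below it.

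Within the Ikaros family, *Ikzf2* took 36.8 ± 5.92% of the summed CPM per kb in thymic WT Tregs, against 42.8 ± 3.54% with thymic CD25 KO, with overlap between mice. In the spleen its share was 43.7 ± 2.88% in WT, against 51.1 ± 0.976% in CD25 KO Tregs, without overlap. The share of *Ikzf4* was 12.8 ± 0.403% in splenic WT Tregs, against 9.41 ± 0.722% with splenic CD25 KO, also without overlap, so *Ikzf2* exceeded *Ikzf4* by 3.42-fold in WT and 5.46-fold in CD25 KO Tregs. *Ikzf1* took 37.1 ± 5.68% in thymic WT Tregs, against 30.6 ± 3.22% with thymic CD25 KO. Its share exceeded that of *Ikzf2* in thymic WT mice 2 (39.8 against 31.9%), 3 (43.9 against 30.8%) and 5 (39.1 against 35.5%). *Ikzf3* took 14.6 ± 0.678% and 16.8 ± 1.78% in the thymus, and 10.9 ± 0.772% and 10.1 ± 0.823% in the spleen. *Ikzf5* took at most 0.317% in any sample. Like the ratios above, these shares have no test of their own.

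**Figure D5:**
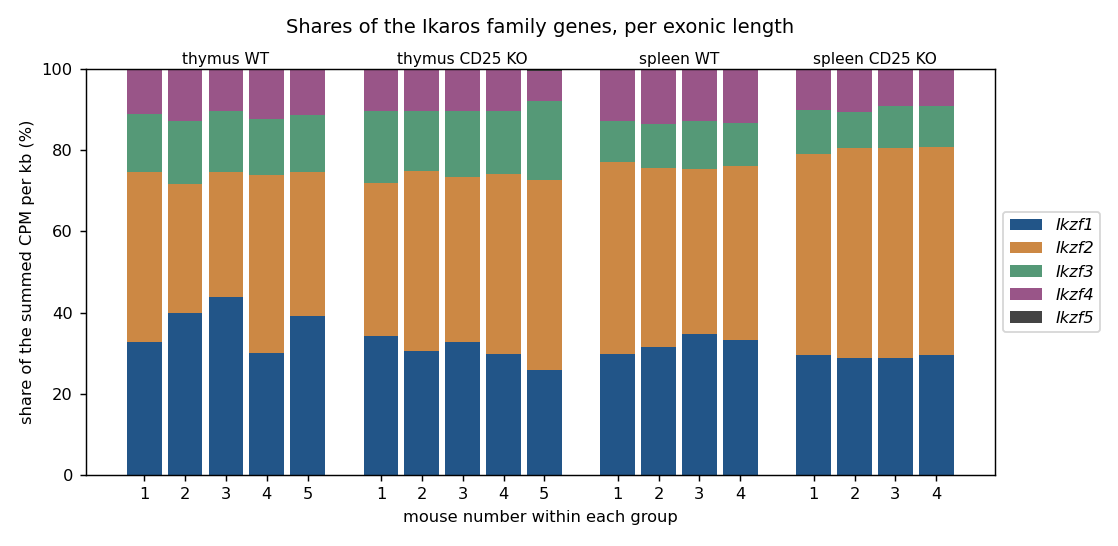
Share of each Ikaros family gene in their summed CPM per kb of exons (vertical axis, percent) in each mouse, by group. *Ikzf2* took 49.7 to 51.8% in splenic CD25 KO mice, against 40.6 to 47.5% in splenic WT mice, and *Ikzf5* is too small to see.

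Of 29 factors that act on the *Foxp3* gene, 4 were called in the thymus, where *Tet2* (log2 fold change 0.40) and *Tet1* (0.38), enzymes of DNA demethylation, were higher and *Runx3* (-1.70) and *Nfatc2* (-0.39) lower. In the spleen 9 of them were called, 6 higher, with *Nr4a2* (0.62), *Uhrf1* (0.57) and *Gata3* (0.41) at the top, and 3 lower, *Bach2* (-0.65), *Tet3* (-0.29) and *Foxo1* (-0.24). These shares were 13.8% and 31.0%, against 6.16% and 9.45% of all genes, and the median log2 fold changes were -0.029 and 0.068, against -0.0022 and -0.0065. Of 22 partners of the Foxp3 protein, 3 were called in the thymus, *Foxp1* higher (0.36) and *Irf4* (-0.81) and *Nfatc2* lower. In the spleen 6 were called, of which *Hif1a* (0.74), *Rora* (0.45) and *Gata3* were the 3 largest of the 5 higher and *Foxp1* (-0.35) the lower one. *Foxp1*, a forkhead relative of *Foxp3*, thus changed in opposite directions, and the difference between the tissues was called (-0.69, adjusted *p* = 5.07e-06). Of 13 other forkhead genes tested, *Foxp1* alone was called in the thymus, and *Foxp1*, *Foxn3* (-0.27) and *Foxo1* were lower in the spleen. The shares called were 13.6% of partners and 7.69% of forkhead genes in the thymus, against 6.16% of all genes. In the spleen they were 27.3% and 23.1%, against 9.45%. The lists share genes, among them *Nfatc2*, *Gata3*, *Foxp1* and *Foxo1*, which are counted in each list that holds them.

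Of 26 genes known to be higher in Foxp3+ than in Foxp3- T cells, 16 were lower and none higher in thymic CD25 KO Tregs, with a median log2 fold change of -0.86, where 2.99% of all genes tested were called lower. The list holds *Il2ra*, the targeted gene itself, which is counted among the lower genes in both tissues. *Socs2*, a target of STAT5, fell by 3.20 and *Tigit*, an inhibitory receptor, by 2.58 on the log2 scale. *Klrg1*, with 0 to 1 counts in thymic CD25 KO samples, was at least 14.3-fold lower than in thymic WT. In the spleen 10 were called, 5 higher and 5 lower, with a median of 0.11, where 9.45% of all genes were called. *Gzmb* (granzyme B, 3.41), *Fgl2* (1.33) and *Tigit* (1.28) were the largest increases, and *Il2ra* (-1.49), *Lrrc32* (-1.33) and *Socs2* (-0.98) the largest decreases. The difference between the tissues was called for 16 of these 26 genes, all toward higher values in the spleen, and for 6.98% of all genes.

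Of the genes known to be lower in Foxp3+ than in Foxp3- T cells, none of 8 tested was called in the thymus (5 at an unadjusted *p* below 0.05, none with DESeq2). In the spleen 6 of 10 were called, against 9.45% of all genes there. The cytokines *Il21* (1.53), *Il4* (1.31) and *Ifng* (1.25) were among 5 that were higher, and *Igfbp4* was lower (-2.59). By flow cytometry, the study found more resting central Tregs in the thymus of older “cured” CD25 KO mice. In the spleen after tamoxifen it found more activated effector Tregs. Its fate mapping with a tdTomato label found no increase of labelled cells without Foxp3. The part of these subset shifts in the values of this list and the one before was not tested. Of 19 corepressors of Ikaros family proteins, none was called by edgeR in either tissue. At an unadjusted *p* below 0.05 the thymus had 11 and the spleen 1, whereas DESeq2 called 3 and 0. Over all genes, DESeq2 called 2763 of 16986 in the thymus and 2146 of 17463 in the spleen. The share of all genes at that unadjusted *p* was not counted, so the counts at it in both lists have no background to be set against. Their median log2 fold change was -0.18 for thymic and -0.022 for splenic Tregs.

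Markers of other cells were low beside those of Tregs. In the spleen, the summed level of 7 B cell markers was 67.3 to 81.4 CPM in WT and 90.4 to 97.7 CPM in CD25 KO samples, and most of it was *Cd74* (log2 fold change 0.40, adjusted *p* = 0.00137). *Pax5*, a transcription factor of B cells, rose from 1.55 ± 0.530 to 3.21 ± 0.373 CPM (adjusted *p* = 0.00352). The 3 NK cell markers summed to 0.366 to 2.67 and 3.04 to 5.77 CPM, nearly all from *Klrb1c* (log2 fold change 1.90, adjusted *p* = 0.0029), with *Ncr1* at 0 counts in every splenic sample. *Klrb1c*, which had 10 to 67 counts in splenic WT samples, was not called with DESeq2. The 5 myeloid markers summed to 16.5 to 22.8 and 21.6 to 28.7 CPM, and *Lyz2*, which encodes a lysozyme, rose from 6.18 ± 2.34 to 12.6 ± 1.69 CPM (adjusted *p* = 0.00132). In the thymus, the groups overlapped for each of the B cell, immature thymocyte, myeloid, NK cell and erythroid lists. The noncoding RNA *Gm26917* was very abundant and lower in CD25 KO libraries, at 105180 ± 9220 against 72553 ± 13225 CPM in the thymus (adjusted *p* = 0.016, not called) and 141200 ± 15416 against 99565 ± 6970 CPM in splenic Tregs (adjusted *p* = 0.00141). The part of these cells and of *Gm26917* in the values of *Foxp3* and the Ikaros family was not tested.

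The genes whose level ran most closely with each member were ranked over 12885 genes by Pearson's *r* of log2 CPM across the 18 samples, as a description, since samples share group and depth. For *Foxp3* these were *Ecm1* (r = 0.974), *Disp1* (0.952) and *Mov10* (0.951), and after group means were subtracted *Myo1d* (0.908), *Lrig1* (0.886) and *Nfkb2* (0.830). For *Ikzf2* the closest after subtraction were *Fam210a* (0.972), *Rabgap1l* (0.940) and *Itgb8* (0.927). For *Ikzf4* they were *Plscr1* (0.943), *Syt11* (0.941) and *Pou2f2* (0.900). For *Ikzf1* *Arl4c* (0.962) led, for *Ikzf3* *Gbp10* (0.878) and for *Ikzf5* *Ccnl1* (0.897). Among the members, *Foxp3* and *Ikzf4* had r = 0.727 over all samples and 0.746 after subtraction. *Ikzf1* and *Ikzf2* had -0.036 and -0.741. *Foxp3* and *Ikzf2* had -0.372 and 0.494.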

How the data were processed

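RNA-seq of 18 samples of FACS-purified Tregs (5 thymic WT, 5 thymic CD25 KO, 4 splenic WT, 4 splenic CD25 KO) was analysed. The authors mapped the paired-end reads to the mouse genome build GRCm38 using STAR (2.5.0b in the submitters' processing notes), counted them per gene of GENCODE M13 with featureCounts 1.5.0, and deposited the raw counts without normalization. The strand setting of the counting is not given in the sources used here. No column was left out (0 not used). Symbols, exons, coordinates and GC content were taken from GENCODE M21 (50376 of 50600 identifiers matched), and promoters from RefSeq.

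In R 4.3.3, edgeR 4.0.16 (filterByExpr, TMM, quasi-likelihood test, Benjamini-Hochberg adjustment, FDR < 0.01) was run per tissue, and on all 18 samples for comparisons between tissues. Fold changes are fitted values, and log2 CPM for correlations used a prior count of 2. The study used DESeq2, which was run here (1.42.0) as an alternative, with upper-quartile and other scalings, other filters, all samples in 1 fit, a GC correction, the mouse number as a block, and single mice left out. A fit with *Xist* detection as a term and one without thymic CD25 KO mice 2 and 4 were added after the data had been seen.

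Named were all 6 members, genes overlapping them or within 100 kb of *Foxp3*, up to 3 called genes per list, direction and tissue, and the genes most like each member; likeness results are given in part. The members and lists were chosen with earlier results of these data known. The procedure was tested on simulated data. Reads carry no molecular identifiers, so floors (3 counts) cover counting error only. Each sample is 1 mouse.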

Additional observations from a re-analysis of the deposited data

Results flagged for a closer look

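The lowest *Ikzf4* value in thymic CD25 KO Tregs, 166 CPM in mouse 5, lay far from the other 4 mice of the group (212 to 223 CPM). Its gap to the next mouse was 0.812 of the range of the group, above Dixon's 95% critical value for 5 samples. Of 24 combinations of gene and group checked, this was the 1 beyond it, and chance alone marks about 1 in 20. The same mouse had the highest *Ikzf3* (617 CPM) and *Ikzf2* (1973 CPM) and the lowest *Ikzf1* (540 CPM) of its group. Without it, the thymic log2 fold change of *Ikzf4* was 0.059 (edgeR's quasi-likelihood test, adjusted *p* = 0.627).

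The effect of CD25 KO on *Ikzf3* differed between the tissues by -0.41 on the log2 scale (edgeR's quasi-likelihood test, SE 0.0939, adjusted *p* = 0.00614). *Ikzf3* was higher in all 5 thymic CD25 KO mice than in any thymic WT mouse, whereas the splenic groups overlapped.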

How the results depend on the processing

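*Foxp3* kept its call and direction under all alternatives run in both tissues (log2 fold changes of -0.84 to -0.59 in thymic and -0.57 to -0.50 in splenic Tregs). The number of genes called in the thymus (1047) was 2763 with DESeq2, 2881 with all 18 samples in 1 fit, 2008 without CD25 KO mice 2 and 4, 636 with *Xist* as a term, and 371 to 1087 with single mice left out. In the spleen (1651) it was 795 with all 18 samples in 1 fit, and 1099 to 1723 with single mice left out. For the difference between the tissues (1305), it was 2188 with DESeq2, 2307 without thymic CD25 KO mice 2 and 4, and 817 to 1489 with single mice left out. The thymic count was 380, 401 and 428 without WT mouse 2, 3 or 5 and 406 and 371 without CD25 KO mouse 1 or 3, the splenic count 1099 without WT mouse 3, and that of the difference 817 without splenic CD25 KO mouse 2. With upper-quartile scaling the difference split into 616 genes higher and 669 lower, against 840 and 465. The cause of these shifts was not tested.

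*Ikzf2* in the thymus was called with DESeq2 (adjusted *p* = 0.00932) and with all 18 samples in 1 fit (0.00845). Its range over alternatives was 0.20 to 0.56 (adjusted *p* up to 0.191). *Ikzf5* in the thymus ranged from 0.39 (GC correction) to 0.75. With all 18 samples in 1 fit, splenic *Ikzf2* (adjusted *p* = 0.0795) and *Ikzf4* (0.0409) lost their calls. Values near 0 that were called nowhere changed sign: with upper-quartile scaling, thymic *Ikzf1* (0.0099) and *Ikzf4* (0.022), splenic *Ikzf3* (-0.0011) and the tissue difference of *Ikzf1* (-0.042). With the GC correction these were thymic *Ikzf4* (0.076), the tissue difference of *Ikzf1* (-0.014) and *Ikzf2* (0.091), and *Ikzf2* between splenic and thymic CD25 KO Tregs (0.070). With single mice left out, the ranges were -0.068 to 0.028 (thymic *Ikzf1*), -0.072 to 0.059 (thymic *Ikzf4*), -0.0099 to 0.074 (splenic *Ikzf3*), -0.047 to 0.021 (splenic *Ikzf1*), -0.019 to 0.070 (tissue difference of *Ikzf1*) and -0.18 to 0.0072 (tissue difference of *Ikzf2*).

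Thymic samples share mouse numbers across genotypes. Same-numbered samples deviated together in few pairs (r = 0.144, 0.034, -0.0675, -0.238 and -0.048), so the numbers were not taken as a pairing. With the replicate block, 209 genes were called, or 241 with the GC correction too. Under the block *Ikzf3* missed the threshold (0.44, adjusted *p* = 0.0124), whereas with block and GC correction it was called (0.47, adjusted *p* = 0.00777) and *Ikzf4* was 0.080. No paired analysis was possible in the spleen because its labels give the genotypes no shared numbers. Depth limits genes with few counts, such as *Ikzf5* (49 to 133 per sample), *Ccdc22*, *Gm36995* and *Klrg1*.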
